A study of Mus musculus with 8 samples.

Results

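The 52 genes described here are interferon-stimulated genes, chosen by name from a list of genes known to be induced by interferon, and they were looked up by symbol among the 49585 genes counted in mouse liver. All 52 were found and all 52 passed the filter on low counts, which left 16496 genes for testing. They were sorted into 8 roles: 5 transcription factors, 6 RNA and DNA sensors, 4 genes of the IFIT family, 6 of the OAS family, 12 Mx, viperin and other antiviral effectors, 8 genes of ISG15 and the ubiquitin and ADP-ribosyl enzymes, 8 interferon-inducible GTPases and 3 immunoproteasome subunits. The study asked what a mutant or deleted Trp53 allele does to the liver under a metabolic load, and RNA was sequenced from the whole livers of 8 male mice, 3 LP+/+, 2 LPfl/+ and 3 LP245/+. All had eaten HFCD, a fat-rich diet lacking choline under which hepatocytes fill with lipid, for 3 months from 21 days of age.

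LP245/+ livers were Alb-CreTG, Trp53wm-R245W/+, in which the recombinase switches an allele from wild-type p53 to p53R245W. LPfl/+ livers were Alb-CreTG, Trp53fl/+, in which it deletes an allele. The LP+/+ livers were labelled Alb-Cre0, without the recombinase, and held an unrecombined allele: Trp53fl/+ in replicates 1 and 2 and Trp53wm-R245W/+ in replicate 3. The text of the study instead describes LP+/+ mice as Alb-Cre carriers. The labels were followed here, and under them the recombinase and the altered allele cannot be told apart in a comparison with LP+/+. Alb-Cre acts in hepatocytes and cholangiocytes only, so the other cells of each liver kept wild-type p53, and in whole tissue fewer cells of a type and less RNA per cell cannot be told apart. The library numbers in the labels fall into 2 series. The first holds all 3 LP245/+ livers with LP+/+ replicates 2 and 3, and the second holds LP+/+ replicate 1 with both LPfl/+ livers.

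Interferons are secreted by cells that sense foreign or misplaced nucleic acid, and they bind receptors on neighbouring cells. Type I and type III interferons act through a complex that includes STAT2 and IRF9 and binds the interferon-stimulated response element (ISRE), while interferon gamma leads to binding at the gamma-activated site (GAS). The induced genes encode sensors, antiviral effectors, GTPases that attack membrane-bound pathogens and the proteasome subunits that prepare peptides for display, and in liver they are made by hepatocytes, Kupffer cells and endothelium alike.

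RefSeq promoters of GRCm38.p6, from 250 bases before to 50 bases after the start, were at hand for 40 of the 52 genes. They were searched on both strands for an ISRE-type motif, GAAANNGAAA, and for a GAS motif, TTCNNNGAA. The ISRE-type letters were in 20 of the 40 (50%), against 3.99% of the 27025 genes in the table, which hold a match in 3.44% of 32851 promoters. The GAS letters were in 11 of the 40 (27.5%), against 9.55% of the genes and 8.3% of the promoters. A match describes the letters only and does not show that a factor binds. The stretches below are those of genes whose values are given in full, and of Igtp and Ifit3b, whose promoter stretches resemble those of Irgm2 and Ifit3. Capitals mark the match named here, and each stretch reads 5′ to 3′ on the strand of its gene. Isg15 (chr4:156200861-156200910, minus strand) holds 3 overlapping matches, of which the middle one is marked. In lower case, the Bst2 stretch also holds a second, overlapping ISRE-type match and a GAS match, and the Igtp and Irgm2 stretches each hold a GAS match. Gbp2 (chr3:142620594-142620623, plus strand) and Ifit3 (chr19:34583353-34583402, plus strand) hold the motif in the reverse direction. Stat2 (chr10:128270256-128270305, plus strand) also holds it in reverse, and Bst2 (chr8:71537567-71537616, minus strand) holds it forward. The stretches of Igtp (chr11:58199502-58199551, plus strand) and Irgm2 (chr11:58214893-58214942, plus strand) differ at 2 of 50 bases, and that of Ifit3b (chr19:34607749-34607798, plus strand) is the same as that of Ifit3 over the 50 bases compared. Psmb8 (chr17:34198088-34198116, plus strand) has only the GAS motif. In GENCODE M21 a longer transcript of Gbp2 and of Psmb8 begins upstream. As a result, 22 bases of the Gbp2 stretch and all 29 of the Psmb8 stretch lie in an annotated untranslated region. The other stretches lie outside the annotated span of their own gene, except that of Irgm2, which lies inside it. Whether the Irgm2 stretch touches an exon was not worked out.
Isg15: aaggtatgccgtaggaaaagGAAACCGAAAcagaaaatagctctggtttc
Gbp2: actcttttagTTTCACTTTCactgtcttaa
Irgm2: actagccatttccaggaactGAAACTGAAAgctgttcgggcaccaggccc
Igtp: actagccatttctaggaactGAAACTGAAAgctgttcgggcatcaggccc
Bst2: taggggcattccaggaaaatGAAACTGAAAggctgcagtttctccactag
Stat2: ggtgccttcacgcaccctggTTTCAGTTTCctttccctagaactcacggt
Ifit3: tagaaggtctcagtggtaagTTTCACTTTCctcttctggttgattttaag
Ifit3b: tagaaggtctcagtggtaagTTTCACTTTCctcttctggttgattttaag
Psmb8: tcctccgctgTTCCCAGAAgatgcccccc

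Each liver had between 26304526 and 31370714 counts. Values per liver are CPM, the counts scaled by TMM to a common library total. Tests are edgeR's quasi-likelihood F tests, with p-values adjusted over all 16496 genes by the Benjamini-Hochberg method. The labels were checked on Trp53 itself and on Cdkn1a, the p53 target that encodes the cell cycle inhibitor p21. Cdkn1a was between 4.85 and 6.62 CPM in LP+/+, at 2.65 and 3.53 in LPfl/+ and between 0.514 and 0.966 in LP245/+. Trp53 was at 4.48 and 6.28 CPM in LPfl/+, below the 7.12 to 9.06 of LP+/+. In LP245/+ it was at 11.24, 10.45 and 6.80 CPM in replicates 1, 2 and 3, on both sides of the LP+/+ range. Hepatocyte markers were abundant in every liver, with Alb between 75600 and 116800 CPM. No source says that livers of a genotype came from separate litters or cages, so p-values measure the spread between these 8 livers.

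The interferon-stimulated genes varied together from liver to liver, also within a genotype. LP+/+ replicate 2 was the highest of the 8 livers for 42 of the 52 genes (80.8%), a place it held for 11.2% of all genes. LPfl/+ replicate 1 was highest for 8 genes (15.4%, against 11.9% of all genes). LP+/+ replicate 1, from the same genotype as the leading liver, was the lowest for 23 (44.2%, against 13.2% of all genes). LP245/+ replicate 1 was the lowest for 12 (23.1%, against 13.2%) and LP245/+ replicate 3 for 10 (19.2%, against 17.1%). On a log2(CPM + 0.5) scale, taken as the difference from each gene's mean over the 8 livers, the median of the 52 genes was 0.47 in LP+/+ replicate 2, -0.28 in LP+/+ replicate 1 and -0.049 in LP+/+ replicate 3. It was 0.25 and -0.075 in the LPfl/+ replicates 1 and 2, and -0.20, 0.067 and -0.12 in the LP245/+ replicates 1, 2 and 3. The control genotype therefore held both the highest and the lowest median.

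**Figure D1:**
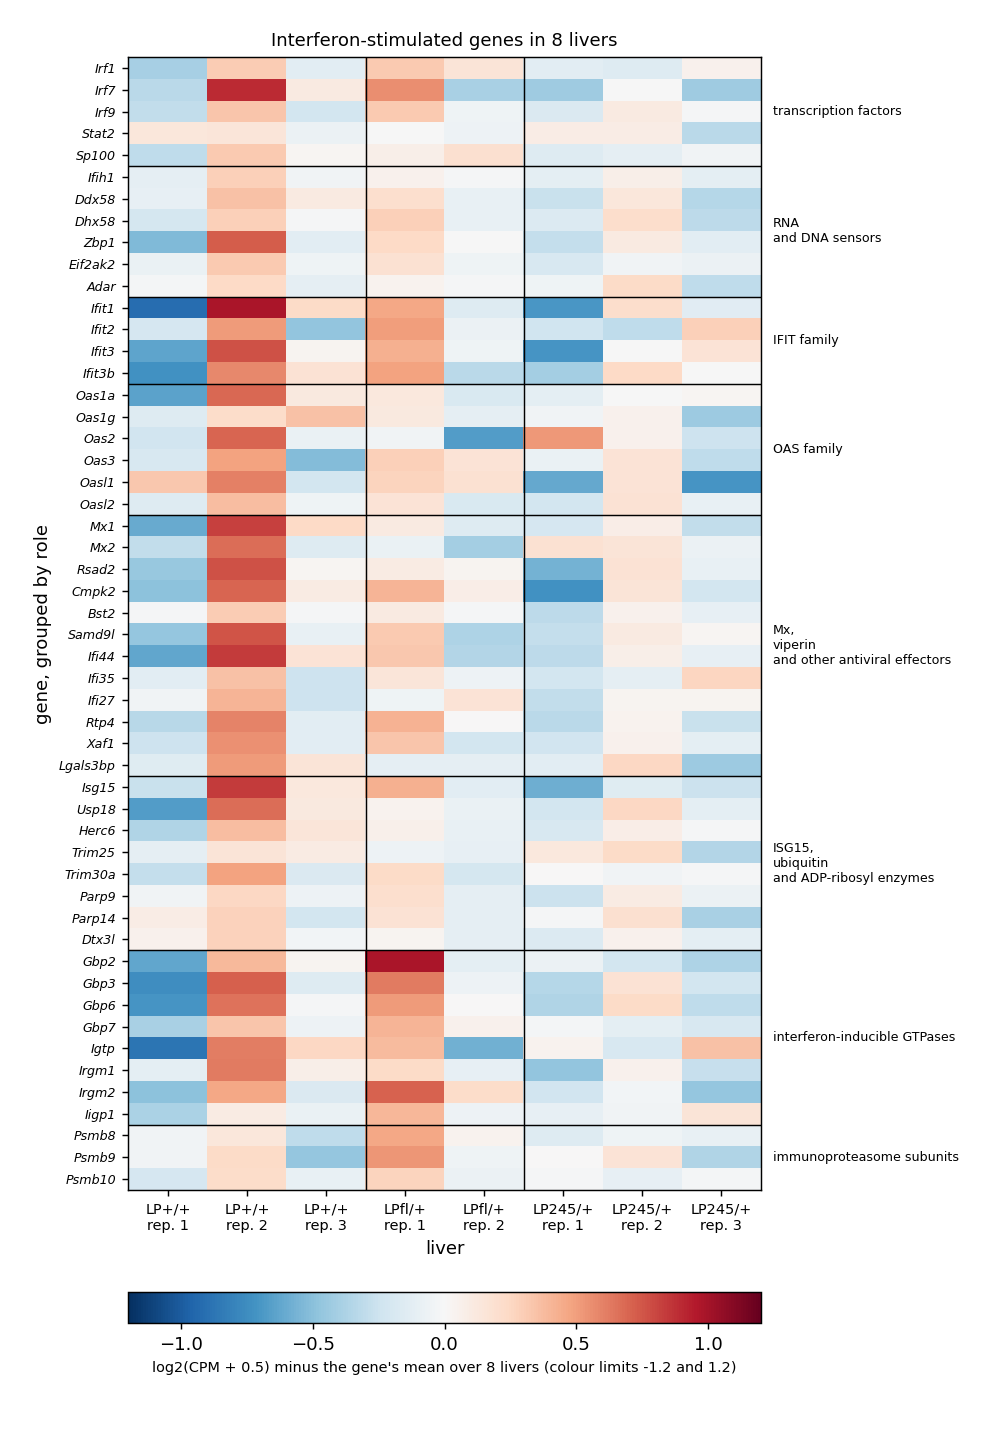
Heat map of the 52 genes (lines, grouped by role) in the 8 livers (columns, grouped by genotype). Colour gives log2(CPM + 0.5) minus the gene's mean over the 8 livers, red above and blue below it. LP+/+ replicate 2 is above the mean for all 52 genes, LPfl/+ replicate 1 for 46 and LP+/+ replicate 1 for 4.

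**Figure D2:**
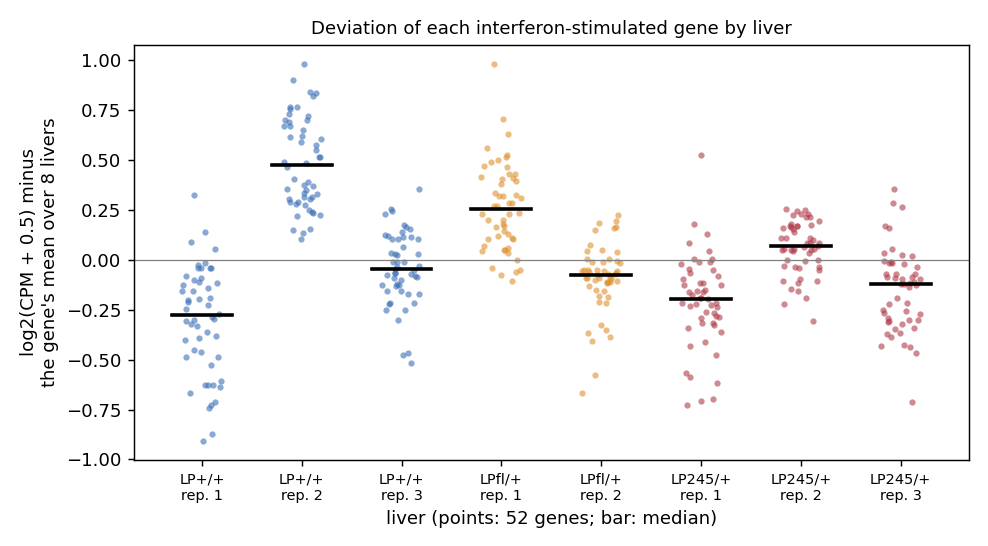
Each point is a gene of the 52 in a liver, as log2(CPM + 0.5) minus the gene's mean over the 8 livers, and the black bar is the median. Colours mark the genotypes, and the medians run from -0.28 in LP+/+ replicate 1 to 0.47 in LP+/+ replicate 2.

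Both Trp53fl/+ control livers can be set against each other, since their labelled genotype is the same. All 52 genes were higher in LP+/+ replicate 2 than in LP+/+ replicate 1, against 48.5% of all genes with counts in both. The median difference was 0.76 on the log2 CPM scale (1.69-fold), against -0.012 for all genes. By at least 2-fold, 19 of the 52 were higher, against 3.85% of all genes. The ratio was 4.03 for Ifit1, 3.92 for Mx1 and 3.14 for Ifi44, all of them antiviral genes, and 1.01 for Stat2, the smallest. These livers came from different library series. LP+/+ replicates 2 and 3 share a series and differ in their unrecombined allele, and 51 of the 52 genes were higher in replicate 2, with a median difference of 0.57 on the log2 CPM scale against 0.004 for all genes. In the second series, 49 of the 52 genes were higher in LPfl/+ replicate 1 than in LPfl/+ replicate 2, with a median difference of 0.37 against 0.003. In the first, LP245/+ replicate 2 was above replicate 1 for 42 genes (49.0% of all genes) and above replicate 3 for 42 (52.7% of all genes).

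The spread within a genotype was widest in LP+/+. The median range over its 3 livers was 0.80 on the log2 CPM scale, against 0.36 for all genes. There, 21 of the 52 genes (40.4%) spanned at least 1, against 16.1% of all genes. In LP245/+ the median range was 0.45 against 0.40 for all genes, and in LPfl/+, with 2 livers, 0.37 against 0.20. A span of at least 1 was seen for 0 of the 52 genes in LP245/+, against 13.6% of all genes. In LPfl/+ it was seen for 1 (1.92%), against 7.66% of all genes. Over the 8 livers, each gene was compared with the mean of the other 51: Pearson's r was over 0.8 for 31 of the 52, with a median of 0.858, and 0.867% of all genes passed 0.8 with the mean of the 52. These values describe 8 livers that were scaled together and fall into 2 library series. Rtp4 (0.975), Xaf1 (0.973) and Zbp1 (0.968) followed the others most closely, while Stat2 (0.25) and Trim25 (0.379) did so least.

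LP245/+ was first compared with LP+/+, which asks what p53R245W does in hepatocytes, with the recombinase itself as a second difference if the labels hold. None of the 52 genes passed the study's cutoff (at least 1 log2 unit of change and an adjusted p no higher than 0.05), which 0.00606% of all genes passed, namely Cdkn1a. The fold changes of the 52 leaned one way: 49 were lower in LP245/+ and 3 higher, with a median log2 fold change of -0.16 against 0.003 for all genes. They ran from -0.70 for Isg15 to 0.12 for Iigp1. Isg15 and Oasl1, 2 of the 52 (3.85%), were lower at an unadjusted p below 0.05, a level reached by 2.38% of all genes in that direction, and 0 were higher at that level, against 3.55%. DESeq2, over 30240 genes, gave 3 of the 52 lower at an unadjusted p below 0.05, against 1.21% of its genes in that direction. It gave 0 higher, against 1.49%, and 0 past the cutoff. For 0 of the 52 did all LP245/+ livers lie below or above all LP+/+ livers, which was the case for 5.08% of all genes in the lower and 6.47% in the higher direction.

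The lean toward lower values in LP245/+ rested on LP+/+ replicate 2. That liver was above every LP245/+ liver for 50 of the 52 genes, against 23.2% of all genes, and above their mean for 52. LP+/+ replicate 1 was below the mean of LP245/+ for 38 genes and below every LP245/+ liver for 24. LP+/+ replicate 3 was above the mean of LP245/+ for 31. Shares of all genes were not worked out for the counts against that mean or for those of LP+/+ replicate 1. How unusual these counts are therefore cannot be judged. Without LP+/+ replicate 2 the median log2 fold change was 0.065, with 15 genes lower and 37 higher. Without LP+/+ replicate 1 it was -0.30, with 51 genes lower and 10 of them at an unadjusted p below 0.05 (2.53% of all genes), and in edgeR's test no adjusted p fell under 0.664. Leaving out that liver leaves only livers of the first library series in the comparison, so the series and the liver cannot be told apart.

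LPfl/+ was compared with LP+/+ in the same way, to ask what the loss of a Trp53 allele does, with the same second difference. Of the 52 genes, 32 were lower and 20 higher, with a median log2 fold change of -0.028 against -0.001 for all genes, and a range from -0.67 for Oas2 to 0.57 for Gbp2. In edgeR, 0 passed the cutoff (0% of all genes), and 0 were lower and 0 higher at an unadjusted p below 0.05 (2.67% and 4.22% of all genes). DESeq2 likewise gave 0, against 1.52% lower and 1.61% higher among its 30240 genes. In no gene of the 52 were the 2 LPfl/+ livers both below or both above all LP+/+ livers (12.4% and 12.6% of all genes). With scaling by library total alone, 21 genes were lower and the median was 0.032, while the median of all genes shifted to 0.061. Without LP+/+ replicate 2 the median was 0.24, with 7 genes lower and 45 higher. At an unadjusted p below 0.05, 9 of those 45 were higher and 0 genes were lower, against 2.65% and 1.65% of all genes. Without LPfl/+ replicate 1 the median was -0.17. Within the second library series, LPfl/+ could be set against LP+/+ replicate 1 only, and the median was 0.40.

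LP245/+ and LPfl/+ were then compared with each other. The median log2 fold change was -0.18 against 0.004 for all genes, with 46 genes lower in LP245/+ and 6 higher, from -0.79 for Gbp2 to 0.61 for Oas2. None passed the cutoff (0% of all genes). Irgm2, Psmb8 and Gbp2, 3 of the 52 (5.77%), were lower at an unadjusted p below 0.05 (4.44% of all genes), and 0 were higher (4.07%). For 7 of the 52 (13.5%) all LP245/+ livers lay below both LPfl/+ livers, against 13.3% of all genes, a share close to the background: Sp100, Gbp7, Isg15, Oasl1, Irf1, Irgm2 and Psmb8. Mx2 was the 1 gene with the groups apart in the other direction, against 12.1% of all genes. Without LPfl/+ replicate 1 the median was 0.011, with 25 genes lower and 0 at an unadjusted p below 0.05, and without LPfl/+ replicate 2 it was -0.35. No library series holds livers of both genotypes, so the series and the genotype cannot be told apart here.

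**Figure D3:**
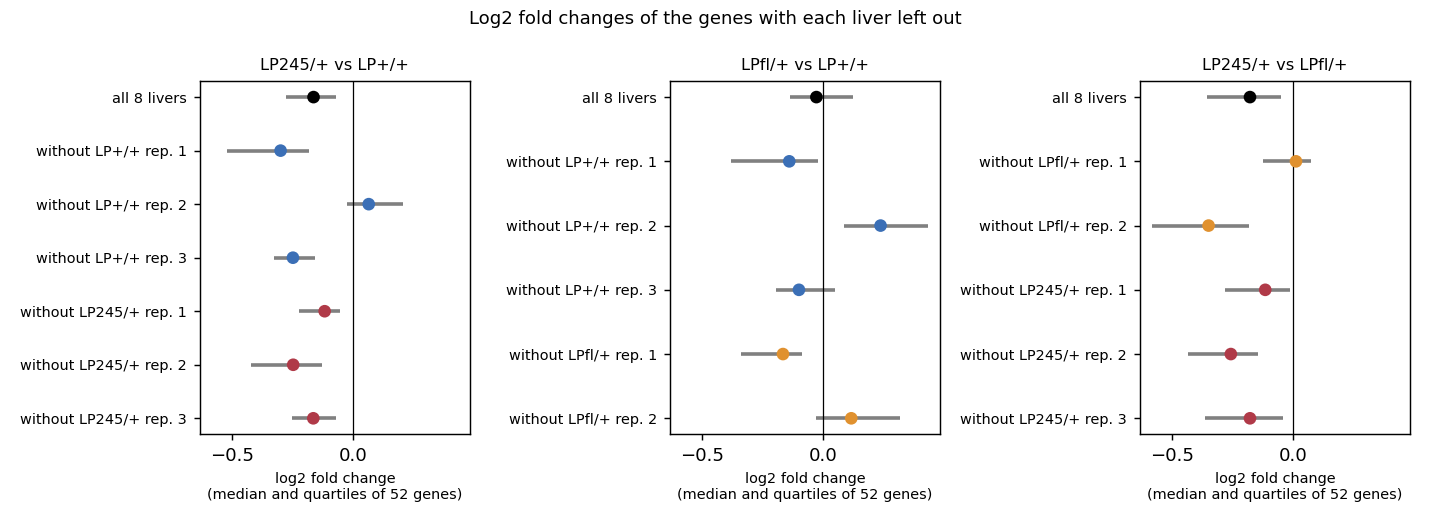
Log2 fold changes of the 52 genes with all 8 livers and with each liver of the comparison left out in turn, in panels for the 3 comparisons. Points are medians, grey bars span the quartiles, and colours mark the genotype of the liver left out. The median for LP245/+ against LP+/+ moves from -0.16 to 0.065 without LP+/+ replicate 2, and that for LP245/+ against LPfl/+ from -0.18 to 0.011 without LPfl/+ replicate 1.

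Among the transcription factors, Irf7 (r = 0.944 with the mean of the other genes) and Irf9 (0.909) followed the pattern closely. Irf1 (0.766) and Sp100 (0.758) did so less, and Stat2 (0.25) least. Irf7, the factor that amplifies type I interferon, was at 14.9, 35.5 and 20.4 CPM in the LP+/+ replicates 1, 2 and 3, at 27.96 and 14.2 in LPfl/+ and at 13.8, 18.7 and 13.9 in LP245/+. It spanned a wide range within both LP+/+ and LPfl/+, so that the genotypes overlapped, and its log2 fold change in LP245/+ against LP+/+ was -0.61 (SE 0.32, adjusted p = 0.831 in edgeR). Stat2, the most abundant of the group per kilobase, was at 54.7, 55.0 and 47.2 CPM in LP+/+, at 49.6 and 47.4 in LPfl/+ and at 52.7, 52.7 and 39.6 in LP245/+. It varied little, and its log2 fold change in LP245/+ against LP+/+ was -0.11 (SE 0.12, adjusted p = 0.911 in edgeR). Irf1, induced through the GAS pathway, lay between 18.2 and 30.2 CPM, with both LPfl/+ livers above the 3 of LP245/+. Irf9 and Sp100 lay between 30.1 and 46.7 CPM and between 8.49 and 13.3 CPM.

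The sensors of viral RNA and displaced DNA were all highest in LP+/+ replicate 2, and all 6 were lower in LP245/+ than in LP+/+, by log2 fold changes between -0.28 and -0.072. Ifih1, which encodes the long double-stranded RNA sensor MDA5 and was the most abundant per kilobase, was at 57.8, 76.4 and 60.9 CPM in LP+/+, at 64.6 and 61.7 in LPfl/+ and at 57.6, 65.5 and 57.5 in LP245/+. Apart from the high control liver, these values lay within a narrow band. Its log2 fold change in LP245/+ against LP+/+ was -0.11 (SE 0.12, adjusted p = 0.908 in edgeR). Zbp1, a sensor of Z-form nucleic acid, was low and varied most, from 1.97 CPM in LP+/+ replicate 1 to 5.39 in replicate 2. Ddx58, the gene of RIG-I, lay between 37.4 and 60.6 CPM, and Adar, the RNA-editing enzyme, between 19.1 and 28.2.

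The IFIT genes, whose products bind viral RNA at its 5′ end, gave the largest differences between control livers. Ifit3, the most abundant per kilobase, was at 6.69, 18.4 and 10.8 CPM in LP+/+, at 14.5 and 10.2 in LPfl/+ and at 6.32, 10.6 and 11.99 in LP245/+. Ifit1 was at 4.14, 16.7 and 9.73 CPM in LP+/+, at 11.6 and 7.35 in LPfl/+ and at 4.88, 9.62 and 7.44 in LP245/+. In both genes the controls covered the whole range of the other genotypes apart from LP245/+ replicate 1 in Ifit3, which was lower still. The log2 fold change of Ifit3 in LP245/+ against LP+/+ was -0.31 (SE 0.35, adjusted p = 0.911 in edgeR). Without LP+/+ replicate 2, all 4 IFIT genes were higher in LP245/+, with a median log2 fold change of 0.17, and with all livers all 4 were lower, with a median of -0.24. Ifit3 and Ifit3b are members of one gene family, and how far reads were shared out or dropped between them was not tested.

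The OAS genes encode enzymes that make 2′-5′ oligoadenylate, the activator of RNase L, and the related Oasl genes. Oasl1, which restrains the translation of Irf7, was at 13.2, 16.2 and 8.94 CPM in LP+/+, at 12.7 and 11.96 in LPfl/+ and at 6.65, 11.8 and 6.19 in LP245/+. Replicates 1 and 3 of LP245/+ were the lowest livers, and replicate 2 of LP245/+ lay above LP+/+ replicate 3, so LP245/+ and LP+/+ overlapped. The log2 fold change in LP245/+ against LP+/+ was -0.64 (SE 0.27, unadjusted p = 0.0398, adjusted p = 0.831 in edgeR). It was lower in LP245/+ in every setting tried, and its unadjusted p was below 0.05 in 9 of 14. Those settings refit the same livers, and the gene was named for its p-value, so they are no separate support. Oas2 and Oas3 were low, between 0.892 and 3.10 CPM and between 0.794 and 2.09 CPM. Oas1a ran from 1.56 CPM in LP+/+ replicate 1 to 4.68 in replicate 2, and how far its reads were shared with its paralog Oas1g was not tested.

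The 12 antiviral effectors were all highest in LP+/+ replicate 2 and all lower in LP245/+ than in LP+/+, with a median log2 fold change of -0.25. Without that control liver, 4 of the 12 were lower. Bst2, which encodes tetherin and was the most abundant per kilobase, was at 44.5, 55.6 and 44.6 CPM in LP+/+, at 48.5 and 44.7 in LPfl/+ and at 36.0, 46.5 and 42.0 in LP245/+. LP245/+ replicate 1 was the lowest and the other livers overlapped. Its log2 fold change in LP245/+ against LP+/+ was -0.22 (SE 0.13, adjusted p = 0.837 in edgeR). Samd9l, a growth restraint and antiviral factor, was at 35.7 CPM in LP+/+ replicate 1 and 83.7 in replicate 2. Rsad2, the gene of viperin, went from 8.15 to 19.6 CPM in the same livers. Mx2 was at 5.19 and 4.03 CPM in LPfl/+ and between 5.22 and 6.32 in LP245/+, and LP+/+ spanned both, from 4.38 to 9.06.

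Isg15, a ubiquitin-like protein that is joined to other proteins, had the most negative fold change of the 52 in LP245/+ against LP+/+. It was at 3.23, 7.55 and 4.40 CPM in LP+/+, at 5.55 and 3.61 in LPfl/+ and at 2.497, 3.56 and 3.26 in LP245/+. All LP245/+ livers lay below both LPfl/+ livers, but LP+/+ replicate 1 lay among them, and LP+/+ replicate 2 held more than any other liver. The log2 fold change in LP245/+ against LP+/+ was -0.70 (SE 0.31, unadjusted p = 0.0498, adjusted p = 0.831 in edgeR). It ranged from -0.95 to -0.31 over the 14 settings tried, with an unadjusted p below 0.05 in 8. Usp18, which removes ISG15 from its targets, was at 4.65, 12.5 and 8.37 CPM in LP+/+ and between 6.54 and 9.23 in LP245/+. Dtx3l, a ubiquitin ligase that works with PARP9 and the most abundant per kilobase of this role, was at 92.3, 107.4 and 86.7 CPM in LP+/+, at 91.0 and 82.6 in LPfl/+ and at 79.3, 92.2 and 82.0 in LP245/+. These livers overlapped, and its log2 fold change in LP245/+ against LP+/+ was -0.18 (SE 0.11, adjusted p = 0.846 in edgeR). Dtx3l and Parp9 share 458 exon bases on opposite strands, and the strand used in counting is not given in the sources used here.

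The interferon-inducible GTPases, which assemble on the membranes of intracellular pathogens, were led by both high livers. LPfl/+ replicate 1 was highest for 4 of the 8 (Gbp2, Gbp7, Irgm2 and Iigp1) and LP+/+ replicate 2 for the other 4, while LP+/+ replicate 1 was lowest for 7. The median deviation of the 8 was 0.54 in LP+/+ replicate 2 and 0.46 in LPfl/+ replicate 1. Gbp2 was at 5.20, 11.02 and 8.51 CPM in LP+/+, at 16.9 and 7.604 in LPfl/+ and at 7.89, 7.04 and 6.30 in LP245/+. LPfl/+ replicate 1 alone was high, and LPfl/+ replicate 2 lay within LP245/+. The log2 fold change in LP245/+ against LPfl/+ was -0.79 (SE 0.35, unadjusted p = 0.0472, adjusted p = 0.580 in edgeR), and it ranged from -1.70 to -0.10 over 13 settings.

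Irgm2, a regulator of the same GTPases, was at 35.4, 68.9 and 44.1 CPM in LP+/+, at 81.5 and 58.3 in LPfl/+ and at 42.5, 48.8 and 36.0 in LP245/+. Both LPfl/+ livers lay above all LP245/+ livers, and LP+/+ covered the LP245/+ range and more. The log2 fold change in LP245/+ against LPfl/+ was -0.72 (SE 0.26, unadjusted p = 0.0190, adjusted p = 0.497 in edgeR). Its unadjusted p was below 0.05 in 11 of 13 settings, with log2 fold changes from -1.40 to -0.46 and adjusted p of at least 0.0847. Iigp1, the most abundant of the 52 per kilobase, was at 307.0, 430.0 and 379.2 CPM in LP+/+, at 526.9 and 384.0 in LPfl/+ and at 375.1, 389.9 and 447.3 in LP245/+. The genotypes overlapped, and its log2 fold change in LP245/+ against LP+/+ was 0.12 (SE 0.16, adjusted p = 0.929 in edgeR), the highest of the 52. Igtp and Irgm2 share 162 exon bases on the same strand and are uncertain for that reason, and Gbp6 and Gbp7 also share exon bases with another gene on their strand.

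The 3 immunoproteasome subunits, which replace the catalytic subunits of the standard proteasome, were all highest in LPfl/+ replicate 1. Psmb8 was at 12.6, 14.3 and 10.4 CPM in LP+/+, at 18.1 and 13.4 in LPfl/+ and at 11.6, 12.5 and 12.2 in LP245/+. The LPfl/+ livers lay above all LP245/+ livers, and LP+/+ reached above and below LP245/+. The log2 fold change in LP245/+ against LPfl/+ was -0.38 (SE 0.17, unadjusted p = 0.0454, adjusted p = 0.576 in edgeR), with an unadjusted p below 0.05 in 6 of 13 settings. Psmb10, the most abundant per kilobase, was at 17.5, 23.6 and 19.0 CPM in LP+/+, at 24.5 and 19.2 in LPfl/+ and at 20.1, 18.9 and 19.9 in LP245/+. Its log2 fold change in LP245/+ against LPfl/+ was -0.16 (SE 0.15, adjusted p = 0.816 in edgeR). Without LPfl/+ replicate 1 the median log2 fold change of the 3 subunits in LP245/+ against LPfl/+ went from -0.32 to 0.010. Psmb8 and Psmb9 each share exon bases with a gene on the opposite strand.

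**Figure D4:**
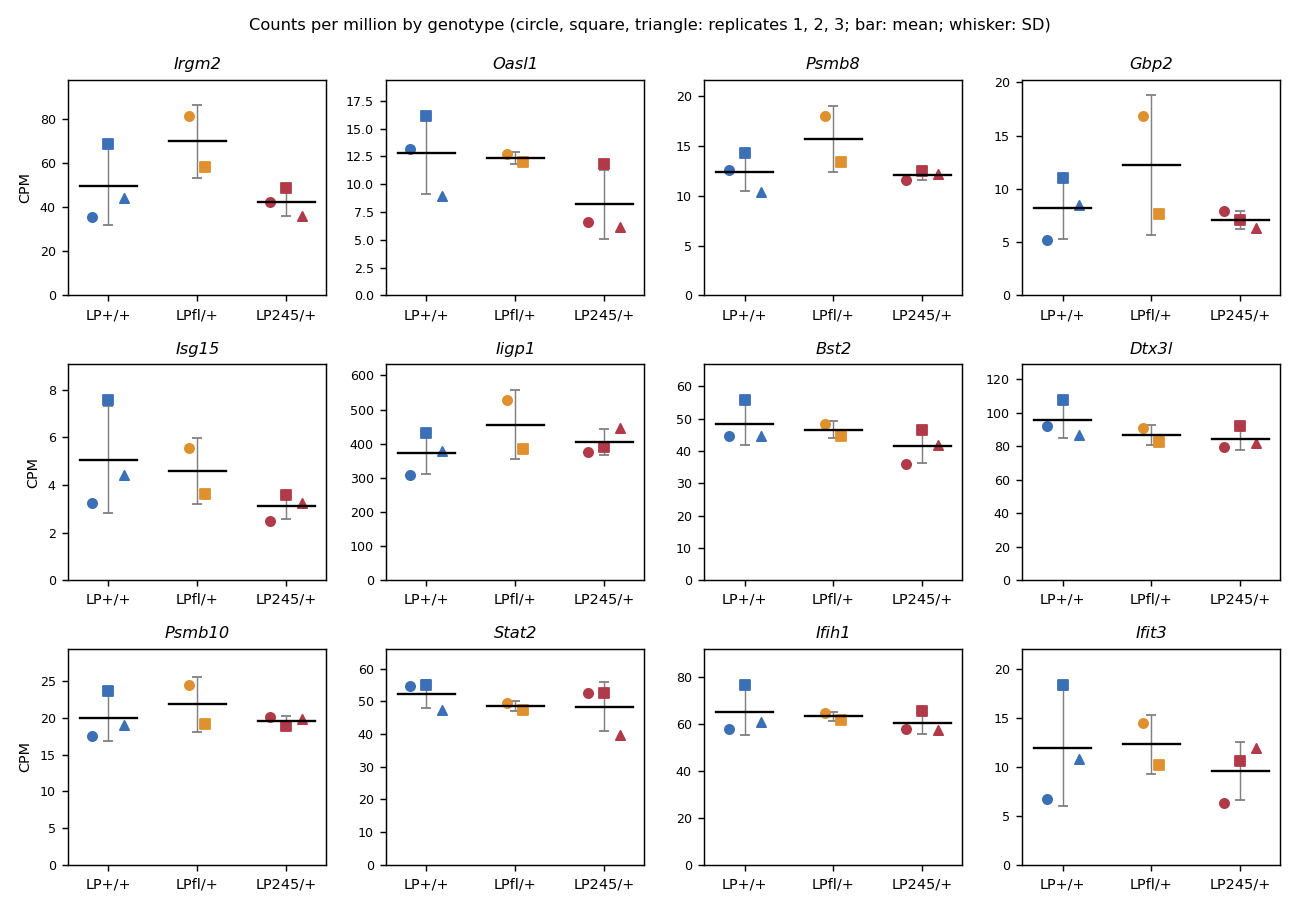
CPM of the 12 genes given in full, by genotype. Circles, squares and triangles are replicates 1, 2 and 3, horizontal bars are means, whiskers are SD, and every axis starts at 0. In Isg15 and Ifit3 the square of LP+/+ is the highest point, and in Gbp2, Irgm2, Psmb8 and Iigp1 the circle of LPfl/+ is.

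The promoter classes were set beside the difference between the Trp53fl/+ control livers. The median difference between LP+/+ replicates 2 and 1 on the log2 CPM scale was 0.93 for the 20 genes with an ISRE-type match, from 0.009 (Stat2) to 2.01 (Ifit1), and 9 of them differed by at least 2-fold. It was 0.64 for the 20 genes without one, of which 4 differed by at least 2-fold, and 1.01 for the 12 genes whose promoters were not in the table, with 6. All classes spanned wide and overlapping ranges.

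**Figure D5:**
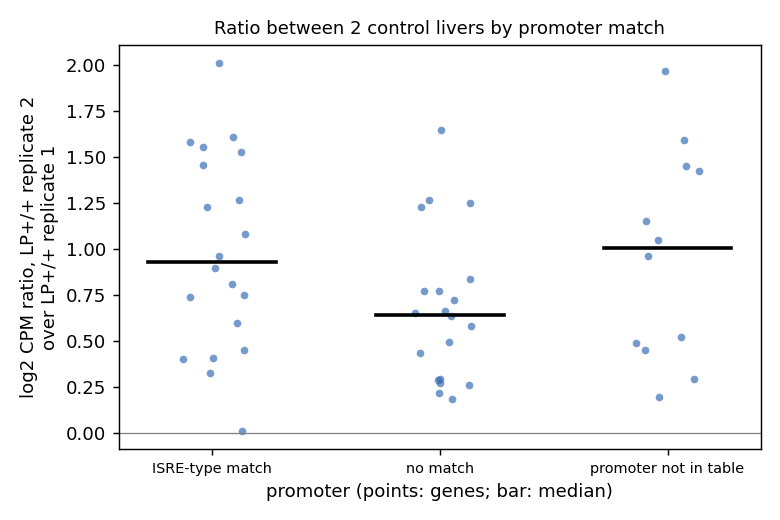
Log2 ratio of CPM in LP+/+ replicate 2 over LP+/+ replicate 1 for each of the 52 genes, by whether the RefSeq promoter holds the ISRE-type motif. Bars are medians (0.93 with a match, 0.64 without, 1.01 where the promoter is not in the table), and all points lie above 0.

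The rest of the pathway was read from fixed lists. Of 12 interferon genes, 11 did not pass the filter. The 10 type I and type III genes among these, such as Ifnb1, had 0 counts in all 8 livers, which allows each a share of up to 1.14e-05% of a liver's counts, and Ifng had between 0 and 5 counts. Ifnk had between 5 and 27. Of 6 receptor genes 5 were tested. All 5 were lower in LP245/+ than in LP+/+, against 49.35% of all genes, with a median of -0.10. None was lower at an unadjusted p below 0.05, against 2.38% of all genes. Ifnar2, a chain of the type I receptor, was at 27.96 and 26.9 CPM in LPfl/+ and between 22.1 and 23.0 in LP245/+, a log2 fold change of -0.28 (SE 0.089, adjusted p = 0.451 in edgeR).

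Of the 9 JAK-STAT carriers and inhibitors 8 were tested. Tyk2, the kinase on the type I receptor, was lower in LP245/+ than in LP+/+ by a log2 fold change of -0.24 (SE 0.099, unadjusted p = 0.0384, adjusted p = 0.824 in edgeR). Of the 8, 1 was lower at an unadjusted p below 0.05 in that comparison, against 2.38% of all genes. In LPfl/+ against LP+/+ Tyk2 was lower by a similar -0.24 (SE 0.11, unadjusted p = 0.0565, adjusted p = 0.733 in edgeR). Between LP245/+ and LPfl/+ the log2 fold change was 0.004. Of 15 genes that sense nucleic acid upstream of interferon 14 were tested, and Trex1 was listed at 0. The genes at an unadjusted p below 0.05 are given with the share of all genes in the same direction. Ikbke was higher in LP245/+ than in LP+/+ (3.55%), and Ticam1 was lower in LPfl/+ than in LP+/+ (2.67%). In LP245/+ against LPfl/+, Ticam1 and Mavs were higher (4.07%) and Tlr3 lower (4.44%). Ticam1, the adaptor of TLR3, was at 7.99 and 8.03 CPM in LPfl/+ and between 11.1 and 19.5 in LP245/+, a log2 fold change of 1.02 (SE 0.25, adjusted p = 0.362 in edgeR).

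Markers of other liver cells were read for the livers that led. Of the 8 Kupffer cell and macrophage markers, 6 were highest in LPfl/+ replicate 1, whose summed level was 468.7 CPM, against 299.1 to 407.5 in the other livers. The second highest was LP+/+ replicate 2. All 8 were lower in LP245/+ than in LP+/+, against 49.35% of all genes, with a median log2 fold change of -0.17. Against LPfl/+ the median in LP245/+ was -0.34, with 7 of the 8 lower, against 49.24% of all genes. Vsig4 and Cd68, 2 of the 8, were lower at an unadjusted p below 0.05 in that comparison, against 4.44% of all genes. Monocyte markers summed to 7.58 CPM in LP+/+ replicate 2 and to between 3.36 and 5.998 elsewhere. The sum in LP+/+ replicate 2 was mostly Ccr2 (4.75 CPM), while Ly6c2 was highest in LPfl/+ replicate 1 and Cx3cr1 in LP+/+ replicate 3. All 3 plasmacytoid dendritic cell markers were below their means over the 8 livers in LP+/+ replicate 2. The same held in LP+/+ replicates 1 and 3, so it did not set the leading liver apart. In LPfl/+ replicate 1, stellate markers summed to 245.4 CPM and endothelial markers to 249.8, below the ranges of the other livers (329.2 to 379.7 and 305.6 to 401.6). The stellate sum was mostly Reln (170.7 CPM). Of the 5 stellate markers, 3 were lowest in that liver, while Des was above its mean over the 8 livers. Of the 5 endothelial markers, 3 were lowest there and 0 were above their means. Of the T and NK cell markers 4 of 8 passed the filter, with sums between 1.51 and 5.88 CPM. The highest sum, in LP+/+ replicate 1, was mostly Cd4 (5.03 CPM), and the other 3 markers were below their means over the 8 livers there. The part of these cells in the differences between livers was not tested.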

How the data were processed

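Whole-liver RNA of 3 LP+/+, 2 LPfl/+ and 3 LP245/+ mice was sequenced. The authors deposited raw read counts per gene, without normalization, made with STAR, which aligned the read pairs of strand-specific total RNA libraries to GRCm38 and counted them on a GENCODE annotation. The release and the strand counted are not given in the sources used here, so a gene and an overlapping partner may share reads. Of the 52 genes, 21 share exon bases with another gene, 8 of them on the same strand. All columns were matched to a sample by its label (0 were left without one), and no livers were left out. The total was 26304526 to 31370714 counts per liver, and 3 counts were taken as the floor, which covers counting error only.

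Symbols, positions and exon lengths were read from GENCODE M21, and promoters from RefSeq (GRCm38.p6). The 8 livers were fitted together in edgeR 4.0.16 (quasi-likelihood F test, TMM, filterByExpr by genotype) under R 4.3.3, and SE is the absolute log2 fold change divided by the square root of F. Benjamini-Hochberg adjustment covered the 16496 genes tested. Levels between genes were compared only as CPM per kilobase of exon. The fits were tested on simulated counts beforehand.

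The 52 genes, their roles and the lists of pathway genes and cell markers (Kupffer and macrophage, monocyte, T and NK cell, stellate, endothelial and hepatocyte among them) were chosen with earlier results of these data known. Values in every liver are given for genes with an unadjusted p below 0.05 in a comparison (at most 12) and for the most abundant gene per kilobase of each role. Since the alternative settings refit the same livers, counts of settings are no separate support for genes named by their p-value. Values in single livers for other genes, such as Irf7 and Ifit1, were chosen after they were seen. The result of 1 gene of the pathway lists is not reported here. Lists are described by counts and medians beside all genes, without a test of the list.

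Alternatives were DESeq2 1.42.0, RLE factors or library totals in place of TMM, no filter or a stricter one (10 counts or more in each liver), a fit of the 2 compared groups alone, the library series as a covariate or as a limit, each liver left out, and the replicate number as a block. Neither the labels nor the methods pair livers by number, and the deviations of same-numbered livers from their genotype means correlated between -0.082 and 0.034 over genes, so the livers were analysed as unpaired. Figures were drawn with matplotlib 3.10.9 under Python 3.11.15.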

Additional observations from a re-analysis of the deposited data

How the results depend on the processing

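None of the 52 genes passed the cutoff in any comparison under any alternative run, in edgeR or in DESeq2. The number at an unadjusted p below 0.05 did move, and it is given here with the share of all genes in the same direction and fit. In LP245/+ against LP+/+, where 2 genes were lower, 4 were with no filter on low counts (2.08%), 10 with the library series as a covariate (2.52%) and 1 with the replicate number as a block (2.23%), and with each liver left out it was 0 to 10 (1.66% to 3.51%). In LPfl/+ against LP+/+, where 0 were higher, 3 were with library totals (5.27%), 2 with no filter (3.19%) and 12 with the series as a covariate (2.95%), and 0 to 9 with each liver left out (2.65% to 6.88%). In LP245/+ against LPfl/+, where 3 were lower, 5 were with no filter (3.47%), 6 with only the 2 groups compared (5.11%), 23 with the series as a covariate (2.70%) and 1 with the replicate block (3.31%), and 0 to 3 with each liver left out (3.23% to 4.35%).

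Measured against the spread of the livers' medians within genotypes (SD 0.278), the median log2 fold change moved by more only through the library series. In LPfl/+ against LP+/+ it was 0.406 with the series as a covariate and 0.402 within the second series, and in LP245/+ against LPfl/+ it was -0.697 with the covariate. In that fit the link between the series is LP+/+ replicate 1 on the one side and LP+/+ replicates 2 and 3 on the other, so the values rest on how far these control livers differed. With each liver left out the medians lay between -0.299 and 0.065, between -0.166 and 0.237 and between -0.350 and 0.011 in the 3 comparisons. The SD of 0.278 draws on these same livers, with LP+/+ medians from -0.28 to 0.47, so it is a lenient measure for leaving out 1 of them. Without LP+/+ replicate 2 the median in LP245/+ against LP+/+ changed sign, from -0.163 to 0.065. With the replicate block the medians of the 3 comparisons were -0.128, -0.034 and -0.166. Of 390 values of single named genes under alternatives, 28 changed sign, none of them past the adjusted threshold. The cause of these shifts was not tested. Genes near or under 1 CPM, such as Oas1g and Mx1, rest on few counts per liver, and groups of 3, 2 and 3 livers leave wide standard errors.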
